A study of Mus musculus with 840 samples.

Results

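The EGF family of ligands and their ErbB receptors was followed through the basal to luminal switch that an active Notch1 imposes on mammary cells. The 9 genes described are the receptors *Egfr*, *Erbb2*, *Erbb3* and *Erbb4* and the ligands *Nrg1*, *Btc*, *Hbegf*, *Tgfa* and *Ereg*. They were chosen by name from the 39154 gene identifiers in the count matrices, and each matched 1 identifier. Single cells came from the mammary glands of SMACreERT2/N1ICD or K5CreERT2/N1ICD mice given tamoxifen at P21, and were sequenced by Smart-seq2, a full-length method for single cells, after a chase of 1, 3, 4 or 6 weeks. Both Cre drivers act in basal cells (BCs), through the smooth muscle actin or the keratin 5 promoter. In recombined cells the Rosa26 allele expresses the Notch1 intracellular domain together with nuclear GFP. Cells were index-sorted from a basal, an intermediate or a luminal gate set by EpCAM and CD49f. GFPpos cells had recombined, while GFPneg cells of the same mice carry the same alleles without expressing them.

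The ErbB proteins are receptor tyrosine kinases that work in pairs. EGFR binds EGF, TGFA, amphiregulin, HBEGF, betacellulin (BTC) and epiregulin (EREG). ERBB3 and ERBB4 bind neuregulins, ERBB4 also binds BTC, HBEGF and EREG, and ERBB2 has no known ligand of its own and serves as a partner. ERBB3 has little kinase activity and signals mainly through its partner and the PI3 kinase pathway. In the mammary gland, EGFR signalling drives duct growth, and ERBB4 acts with STAT5 in the alveolar cells that make milk. Neuregulin 1 is a ligand of BCs whose receptors are found on luminal cells (LCs).

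Of 744 cells on 8 plates, 68.7% passed quality control. They were 100 basal and 120 luminal GFPpos cells, 17 basal, 12 intermediate and 39 luminal GFPneg cells, and intermediate GFPpos cells of which 60, 63 and 61 were on plates E, G and L and 4, 3, 13 and 19 on plates 1 to 4. Every plate held cells of 1 or 2 mice, and the reads of a group were therefore summed within each plate, which gave 30 sums of at least 3 cells. Levels are CPM of such a sum, the reads of a gene for every 1000000 reads on genes, and means are given ± SD over plates. Plates 1, 3, 4 and 5 hold SMACre cells at 1, 3, 4 and 6 weeks, plate 2 (SMACre, 3 weeks) kept 7 cells, plate E holds SMACre cells at 3 weeks, and plates G and L hold K5Cre cells at 3 weeks. The chase of plate L is uncertain, since its sample names say 6 weeks. Median depth was 402767 and 397250 reads per cell in batches 1 and 2 and 1499629 in batch 3, which holds plates E, G and L. Every K5Cre cell is in batch 3, where SMACre cells are on plate E only. For basal and luminal GFPpos cells, which plate E did not give, Cre line and batch cannot be told apart.

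The markers of the basal and luminal gates followed the labels, while the marker ranges of the intermediate gate overlapped those of the basal gate. The study's own listing of sorted cells has the intermediate and luminal numbers of plates 1 to 4 the other way round. The labels were used, and on these plates 10 luminal markers summed to 6499 to 15681 CPM in luminal GFPpos and 649.2 to 2260.8 CPM in intermediate GFPpos sums. The summed level of 10 basal markers was 2810 to 18330 CPM in basal GFPpos sums and 33.2 to 1364 CPM in luminal GFPpos sums, whereas 10 luminal markers reached 279.2 to 1343.5 and 6499 to 17600 CPM. Intermediate GFPpos sums held 3013 to 12267 CPM of the basal and 649.2 to 3132 CPM of the luminal markers. On plates with both groups, luminal markers were higher in the intermediate than in the basal GFPpos sum. Basal markers were lower there, except on plate L with 4796 against 2810 CPM. Some libraries stood apart. The 8 luminal GFPpos cells of plate 1 held 33846 CPM of 7 salivary gland markers, against 0 to 434 CPM in luminal GFPpos sums of the other plates, although each cell had at most 1 *Dcpp1* read. The 4 intermediate GFPpos cells of plate 1 held 1095 CPM of 4 endothelial markers (0 to 6.64 CPM in the other intermediate GFPpos sums), 232.4 CPM of 6 fibroblast markers (0 to 47.3) and 2715 CPM of 8 hormone receptor luminal markers (70.6 to 219.6). Its basal GFPpos sum held 515.8 CPM of the endothelial markers (0 to 7.72 CPM on the other plates), and the intermediate GFPneg sum of plate L 2003 CPM of 5 immune markers. The part of these in the values was not tested. Fitted differences without plate 1 are given for each comparison, though not for every gene. *Notch1* was at 441.8 ± 259.3 CPM in luminal GFPpos and 266.8 ± 176.6 CPM in luminal GFPneg sums of the same 6 plates (log2 fold 0.64, SE 0.41, edgeR quasi-likelihood adjusted p = 1.0). It was higher in the GFPpos sum on plates 1, 3, 5 and L and lower on plates 4 and G. EdgeR called 0 of 10929 genes in this comparison, so the lack of a call does not show that the groups were alike.

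Levels of different genes were compared per kilobase of exon. In basal GFPpos sums *Nrg1* led with 62.01 ± 51.51 CPM per kb, followed by *Hbegf* (42.5 ± 79.2), *Egfr* (17.4 ± 6.55), *Erbb2* (9.34 ± 3.51), *Erbb3* (7.43 ± 5.36) and *Tgfa* (6.22 ± 3.57 CPM per kb, n = 5 plates). *Ereg* stood at 1.5 ± 2.05, and *Btc* and *Erbb4* at 0.103 ± 0.230 and 0.0962 ± 0.204 CPM per kb. In luminal GFPpos sums the order began with *Hbegf* (36.9 ± 23.9) and *Erbb3* (35.7 ± 7.23), then *Erbb2* (20.3 ± 7.76), *Egfr* (9.45 ± 4.34), *Erbb4* (6.25 ± 5.02), *Tgfa* (4.53 ± 4.37), *Nrg1* (3.34 ± 4.61), *Btc* (1.80 ± 0.408) and *Ereg* (0.164 ± 0.301 CPM per kb, n = 6 plates). *Nrg1* thus ranked 1 of the 9 genes in BCs and 7 in LCs. The place of *Hbegf* in BCs rests on plate G with 183.8 CPM per kb, since the other plates held 2.0 to 17.02 CPM per kb. The mean ± SD ranges of neighbours in these orders overlapped, except for *Erbb3* with *Erbb2* and *Btc* with *Ereg* in LCs. The plot of levels by gate, GFP and plate shows these values in CPM.

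**Figure D1:**
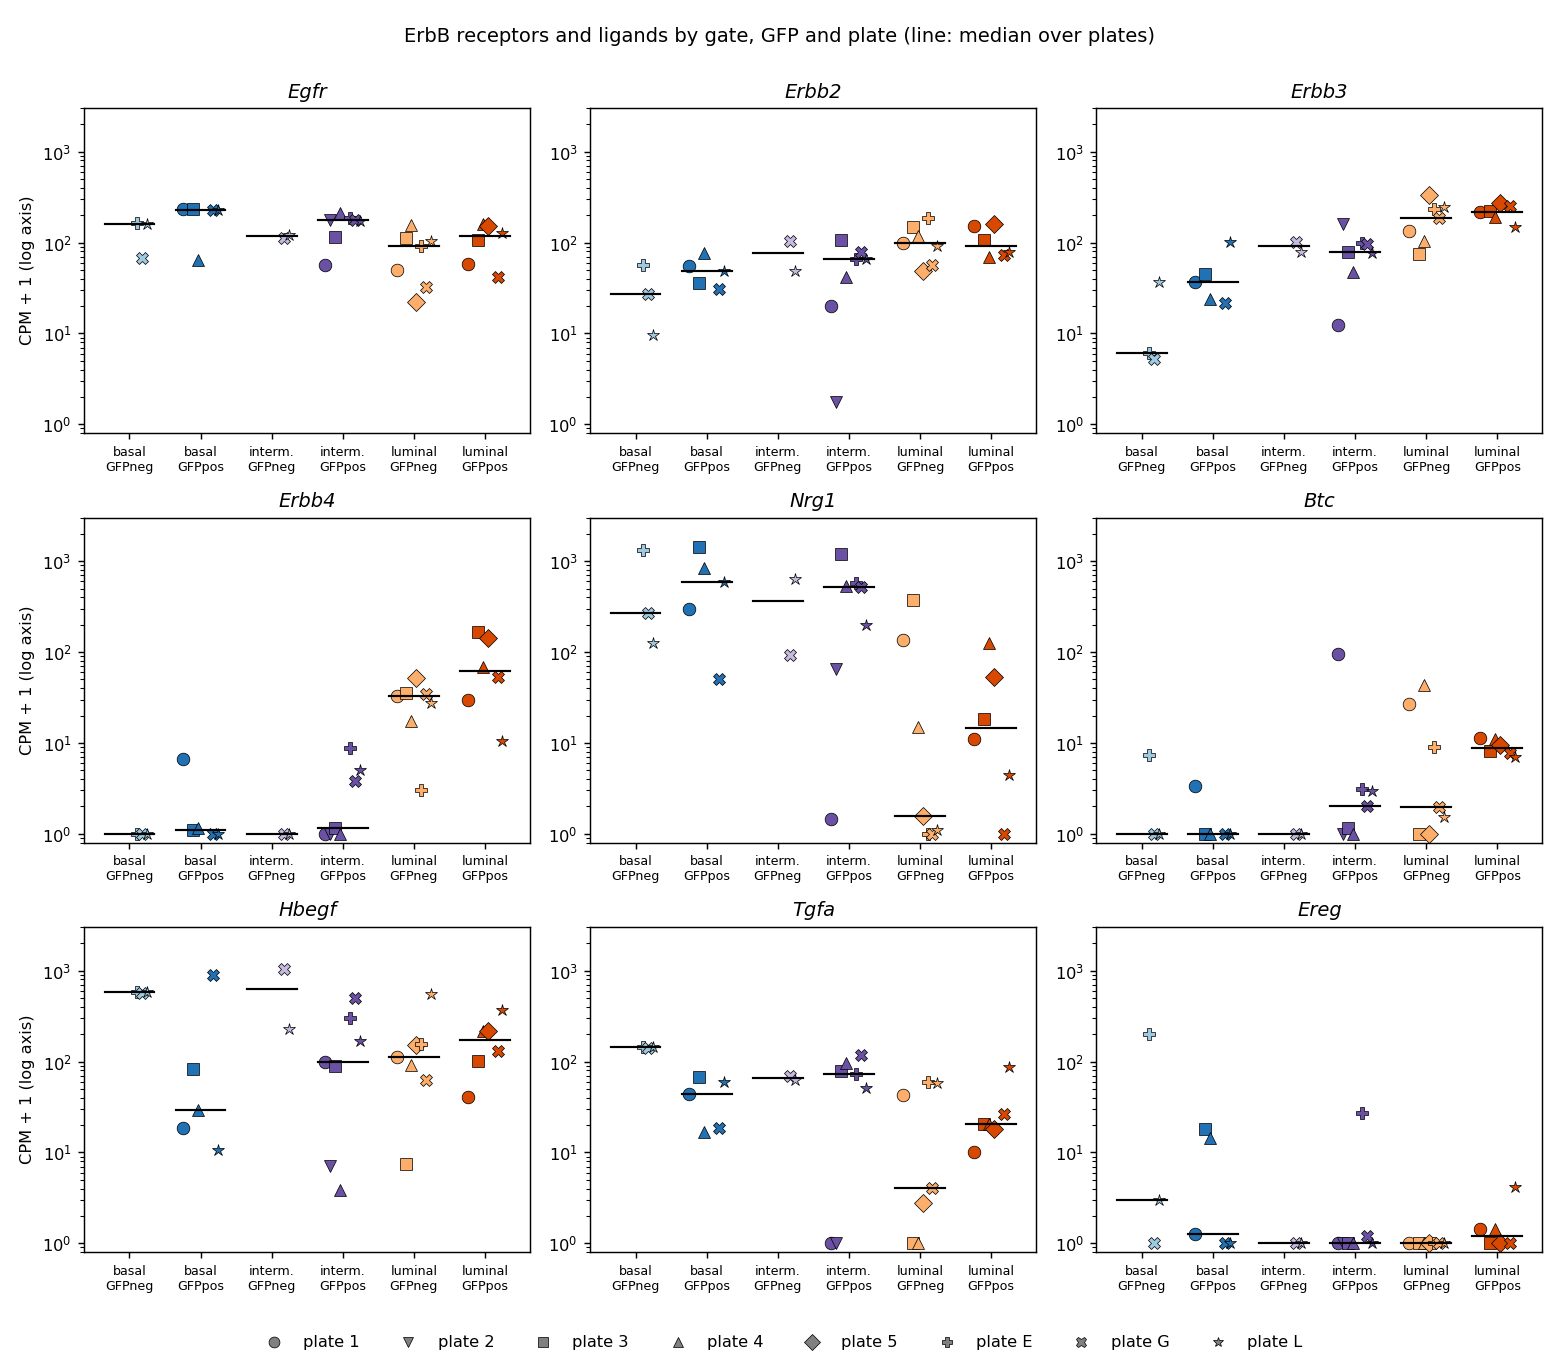
CPM + 1 on a log axis of each of the 9 genes, by gate and GFP, with a marker for each plate and a line at the median over plates. Erbb4 lies between 9.41 and 164.2 CPM in the 6 luminal GFPpos sums and at most at 5.68 CPM in the 5 basal GFPpos sums, while Nrg1 is above 49 CPM in every basal GFPpos sum.

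The receptors differed in how they were distributed over the gates. *Erbb3*, the neuregulin receptor that relies on a partner kinase (GRCm38 chr10:128567523-128589652, minus strand), was at 36.2, 43.9, 22.97, 20.7 and 99.8 CPM in the basal GFPpos sums of plates 1, 3, 4, G and L. In the luminal GFPpos sums of the same plates it was at 216.9, 219.1, 188.8, 248.7 and 145.9 CPM. All 5 luminal values lay above all 5 basal values, with plate L showing the smallest gap. The difference was 2.32 on the log2 scale (SE 0.48) and did not pass the threshold (edgeR quasi-likelihood with plate as block, Benjamini-Hochberg adjusted p = 0.0890). Intermediate GFPpos sums of 7 plates had 80.2 ± 45.3 CPM, from 11.5 on plate 1 (4 cells) to 157.1 on plate 2 (3 cells), and luminal GFPneg sums 187.3 ± 91.4 CPM (n = 7 plates). Without plate 1 the luminal to basal difference was 2.26 (adjusted p = 0.277), and without plate L it was 2.75 (adjusted p = 0.0442).

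*Erbb4*, whose gene spans GRCm38 chr1:68032186-69108059 on the minus strand, was nearly confined to luminal-gate sums. Basal GFPpos sums held 5.68, 0.103, 0.152, 0 and 0 CPM on plates 1, 3, 4, G and L, and the luminal GFPpos sums held 28.9, 164.2, 67.9, 52.3 and 9.41 CPM. The sixth luminal GFPpos sum, of plate 5, held 140.9 CPM. The groups did not overlap, and plate L was again the lowest luminal sum. The fitted difference was 8.14 on the log2 scale (SE 1.62, adjusted p = 0.0811), a size that rests on basal counts near 0. Without plate 1 the difference was 9.74 (SE 0.98) and passed the threshold (edgeR adjusted p = 0.0327). *Erbb4* passed the filter on low counts through its luminal sums. Its difference, this call and the lack of overlap are therefore a description only. *Erbb4* was at 0 CPM in all 3 basal GFPneg and both intermediate GFPneg sums, at 0 to 7.69 CPM in the 7 intermediate GFPpos sums and at 2.03 to 50.5 CPM in the 7 luminal GFPneg sums.

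The start of *Erbb4* is shown because it is the receptor with the lowest basal level. It is the 250 bases before its start in RefSeq (GRCm38.p6, chr1:69108060-69108309, minus strand, 5′ to 3′, no capitals since none of the motifs searched is present).
Erbb4: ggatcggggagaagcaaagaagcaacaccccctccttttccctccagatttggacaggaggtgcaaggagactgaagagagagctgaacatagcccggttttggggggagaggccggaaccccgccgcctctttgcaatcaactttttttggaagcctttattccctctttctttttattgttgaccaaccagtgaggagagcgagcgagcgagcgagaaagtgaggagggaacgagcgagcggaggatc
RefSeq windows of 300 bases, from 250 before to 50 after the start, were at hand for 5 of the 9 genes (*Egfr*, *Erbb2*, *Erbb4*, *Btc* and *Tgfa*). They were searched on both strands for GTGGGAA, the letters bound by the Notch partner RBPJ, for TGANTCA of AP-1 and for the E-box CAGGTG. The letters GTGGGAA were in none of the 5 and in 6.38% of all 32851 windows, and TGANTCA in none and in 7.81%. The 300 bases of *Erbb4* hold 17 CG pairs, against a median of 7 over all windows. CAGGTG was in 2 of the 5 windows, given with *Btc* and *Tgfa* below, and in 20.2% of all windows.

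*Egfr*, the receptor of most EGF ligands, ran the other way. It was at 235.6, 230.4, 64.04, 225.7 and 227.3 CPM in basal GFPpos sums (plates 1, 3, 4, G and L) and at 57.1, 106.6, 159.5, 40.5 and 126.8 CPM in the luminal GFPpos sums. It was lower in the luminal sum on 4 of 5 plates, with plate 4 the exception, and the ranges overlapped. The difference of -1.21 (SE 0.53) did not pass the threshold (edgeR adjusted p = 0.446). *Erbb2*, the partner receptor, was at 48.7 ± 18.3 CPM in basal and 95.21 ± 34.97 CPM in luminal GFPpos sums of these plates, and higher in the luminal sum on 4 of 5 (log2 0.87, SE 0.39, adjusted p = 0.459). Basal GFPneg sums had 129.2 ± 54.2 CPM of *Egfr* and 30.1 ± 23.8 CPM of *Erbb2* (n = 3 plates).

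*Nrg1*, the neuregulin ligand of ERBB3 and ERBB4 (GRCm38 chr8:31814551-32884029, minus strand), fell in the luminal gate. The basal GFPpos sums held 295.7, 1432, 840.8, 49.4 and 592 CPM on plates 1, 3, 4, G and L, and the luminal GFPpos sums 10.005, 17.4, 124.1, 0 and 3.49 CPM. Every plate moved the same way, while the lowest basal value, on plate G, lay under the highest luminal value, on plate 4. On plate G, 40.1% of the basal *Nrg1* reads came from 1 of 5 cells. The difference was -6.03 on the log2 scale (SE 0.95), and *Nrg1* was the only one of the 9 genes past the threshold (edgeR adjusted p = 0.0465). It was 1 of 68 genes called of 12091 tested (0.562%). The luminal sum with the most *Nrg1*, of plate 4, also held the most basal marker reads of the luminal GFPpos sums, 1364 CPM, and its part in the value was not tested.

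The *Nrg1* call was close to the threshold. With each plate left out in turn the difference stayed between -6.84 and -5.51, and the adjusted p rose to 0.0548 (without plate 4), 0.0821 (G), 0.0872 (L), 0.149 (1) and 0.178 (3), so that no call remained. In batch 1 the mean log2 ratio of CPM + 1 was -4.75 (1 plate), in batch 2 -4.52 (2 plates) and in batch 3 -6.35 (2 plates). *Erbb3* had 2.55, 2.64 and 2.04 and *Erbb4* 2.16, 6.56 and 4.56 in batches 1, 2 and 3 on the same scale.

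Of the 8 genes tested between luminal and basal GFPpos sums, 4 moved the same way on all 5 plates (*Erbb3*, *Erbb4* and *Btc* higher, *Nrg1* lower), as did 14.7% of all genes tested. The groups did not overlap for 3 of the 8 (*Erbb3*, *Erbb4* and *Btc*), against 4.68% of all genes. *Erbb4* and *Btc* passed the filter on low counts through their luminal sums, so these counts are a description only. *Ereg* did not pass it in any comparison. The median difference of the 8 genes was 1.07, beside -0.04 over all genes tested. It includes *Erbb4* and *Btc* and is likewise a description only. Without plate 1 the differences of the genes not yet given were -0.95 for *Egfr*, 0.72 for *Erbb2*, 1.32 for *Hbegf*, -0.20 for *Tgfa* and 9.02 for *Btc*, and none was called. The plot of luminal over basal ratios shows each plate.

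**Figure D2:**
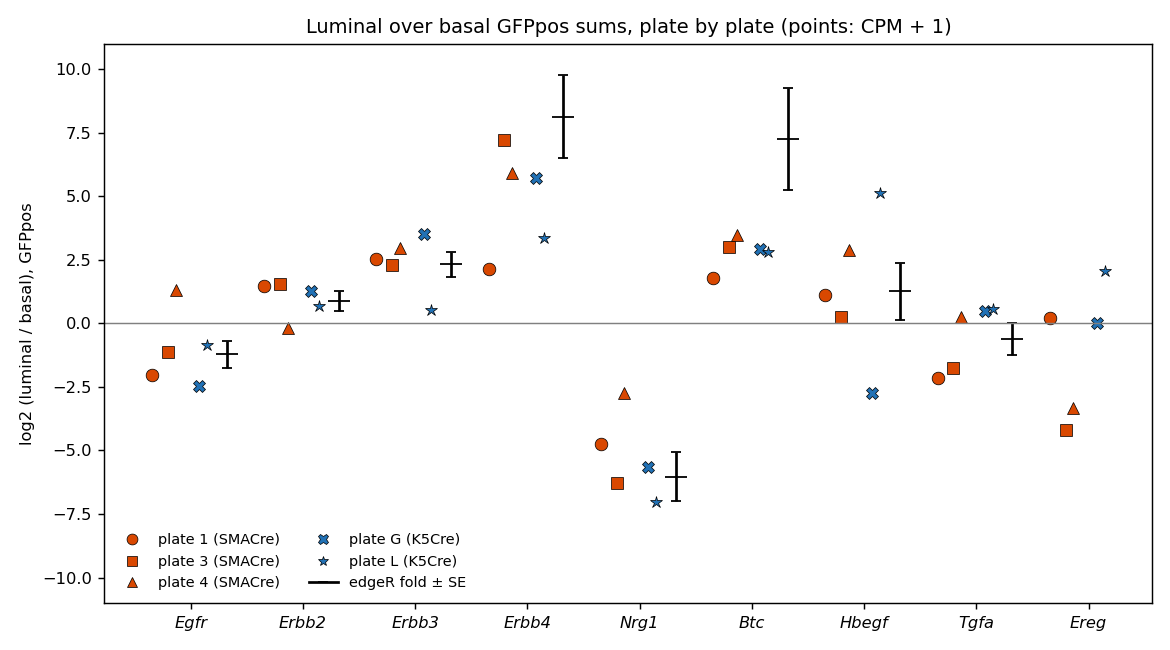
Log2 ratio of luminal over basal GFPpos CPM + 1 for each gene on plates 1, 3, 4, G and L (colour: Cre line), with the edgeR log2 fold ± SE beside it where the gene was tested. Nrg1 is below 0 on all 5 plates and Erbb3, Erbb4 and Btc are above 0 on all 5, whereas Hbegf and Tgfa fall on both sides. The fitted folds of Erbb4 and Btc exceed the points because the points carry a pseudocount of 1 CPM.

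*Btc*, a ligand of both EGFR and ERBB4, was low throughout. Luminal GFPpos sums held 10.46, 7.15, 10.1, 8.44, 6.66 and 6.03 CPM on plates 1, 3, 4, 5, G and L, a narrow range. Basal GFPpos sums held 2.32 CPM on plate 1, from 1 cell, and 0 on the other 4 plates. The difference was 7.27 on the log2 scale (SE 2.0, edgeR adjusted p = 0.180), a size that rests on basal counts near 0. It was 9.02 without plate 1 (SE 2.33, adjusted p = 0.384) and 3.87 without the plate block. Only 18 of 120 luminal GFPpos cells had a read at equal depth. In the intermediate gate of plate 1 the 93.5 CPM came from 1 of 4 cells.

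*Tgfa*, the classical EGFR ligand of epithelial cells, showed no clear order. It was at 43.2, 66.6, 15.97, 17.6 and 58.5 CPM in basal GFPpos sums of plates 1, 3, 4, G and L and at 9.10, 19.3, 19.4, 25.3 and 86.3 CPM in the luminal GFPpos sums. The luminal value was lower on plates 1 and 3 and higher on the others (log2 -0.62, SE 0.64, edgeR adjusted p = 0.810). Intermediate GFPpos sums had 58.95 ± 45.18 CPM (n = 7 plates, 2 of them at 0).

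*Btc* and *Tgfa* are the 2 genes whose upstream sequence holds the E-box CAGGTG, the letters bound by SNAI and ZEB factors, shown in capitals. The *Btc* sequence is chr5:91402995-91403244 (minus strand) and the *Tgfa* sequence chr6:86194972-86195221 (plus strand), both from RefSeq (GRCm38.p6), the 250 bases before the start, 5′ to 3′.
Btc: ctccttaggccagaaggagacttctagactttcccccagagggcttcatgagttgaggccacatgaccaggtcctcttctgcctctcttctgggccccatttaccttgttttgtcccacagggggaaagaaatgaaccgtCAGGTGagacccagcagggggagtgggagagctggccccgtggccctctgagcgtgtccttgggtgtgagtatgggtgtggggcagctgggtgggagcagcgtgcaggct
Tgfa: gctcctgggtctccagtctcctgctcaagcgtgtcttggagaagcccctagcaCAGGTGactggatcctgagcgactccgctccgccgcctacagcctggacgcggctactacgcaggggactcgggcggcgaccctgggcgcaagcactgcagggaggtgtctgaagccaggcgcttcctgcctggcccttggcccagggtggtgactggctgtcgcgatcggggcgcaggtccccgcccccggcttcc
The 300-base windows hold 5 CG pairs for *Btc* and 24 for *Tgfa*. The match is a description of the letters, and the 2 genes did not share a direction between the gates.

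*Hbegf*, a ligand of EGFR and ERBB4, varied widely between plates. Basal GFPpos sums held 17.8, 82.3, 28.1, 888 and 9.66 CPM on plates 1, 3, 4, G and L, and 73.95% of the reads on plate G came from 1 of 5 cells. Luminal GFPpos sums held 39.8, 99.5, 215.3, 130.9 and 369.2 CPM. The luminal value was higher on 4 of 5 plates, all except G (log2 1.26, SE 1.12, edgeR adjusted p = 0.766). *Ereg*, a ligand of EGFR and ERBB4, had reads in 4 of 100 basal, 9 intermediate (4.04%) and 2 of 120 luminal GFPpos cells at equal depth. Its highest sum was the 6 basal GFPneg cells of plate E with 201.2 CPM, 65.2% of it from 1 cell, and all 7 luminal GFPneg sums were at 0.

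Between the intermediate and the basal gate none of the genes was called. Of 12348 genes tested on 5 plates, edgeR called 0 (0.0%), 1.48% had an unadjusted p under 0.05, and DESeq2 called 65. The 6 genes tested had log2 differences from -0.91 (*Nrg1*, SE 1.32) to 0.53 (*Hbegf*, SE 1.13), each with an edgeR adjusted p of 1.0. *Nrg1* was at 0.458, 1206, 529.7, 515.6 and 198.1 CPM in the intermediate GFPpos sums of plates 1, 3, 4, G and L, and plate 1, whose 4 cells carry the endothelial, fibroblast and hormone receptor marker reads given above, was the lowest. Without plate 1 the difference of *Nrg1* was -0.0034 (SE 0.83), and those of the other genes tested were -0.06 for *Egfr*, 0.64 for *Erbb2*, 0.89 for *Erbb3*, -0.18 for *Hbegf* and 1.31 for *Tgfa*, with no call. *Erbb4* was at 0, 0.169, 0, 2.84 and 4.0 CPM there and did not pass the filter.

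Between the luminal and the intermediate gate edgeR called 0 of 11979 genes (0.0%), with 822 at an unadjusted p under 0.05, and DESeq2 called 797. *Erbb3* was higher in the luminal GFPpos sum on 5 of 5 plates (log2 1.83, SE 0.53, edgeR adjusted p = 0.420), as was *Erbb4* (6.59, SE 1.90, adjusted p = 0.420). For both genes the groups did not overlap on these plates. Of all genes tested, 11.9% moved the same way on all 5 plates and 3.03% did not overlap. *Erbb4* held 0, 0.169, 0, 2.84 and 4.0 CPM in the intermediate sums and passed the filter on low counts through its luminal sums. Its size, direction and lack of overlap are therefore a description only. Outside these plates, the 3 intermediate GFPpos cells of plate 2 held 157.1 CPM of *Erbb3*, above the luminal sum of plate L at 145.9 CPM. *Nrg1* was lower on 4 of 5 plates (-4.95, SE 2.23, adjusted p = 0.747), with plate 1 the exception. Without plate 1 the differences were 1.35 for *Erbb3* (adjusted p = 0.204), 5.79 for *Erbb4* (0.370) and -6.13 for *Nrg1* (0.261). DESeq2 called all 3 of these genes.

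Luminal GFPpos cells, which derive from BCs, were compared with luminal GFPneg cells on 6 plates. EdgeR called 0 of 10929 genes (0.0%), with 436 at an unadjusted p under 0.05, and DESeq2 called 2.13%, none of the 9 genes among them. *Erbb3* was at 214.6 ± 43.5 CPM in GFPpos and 179.5 ± 97.6 CPM in GFPneg sums (log2 0.37, SE 0.35), *Erbb4* at 77.3 ± 62.1 and 32.1 ± 11.1 CPM (0.80, SE 0.62) and *Egfr* at 107.1 ± 49.1 and 78.8 ± 53.3 CPM (0.49, SE 0.46, each edgeR adjusted p = 1.0). *Tgfa* had the largest fitted difference, 2.85 (SE 1.53, adjusted p = 1.0), and was higher in GFPpos sums on 5 of 6 plates. Without plate 1 it was 3.78, and that of *Nrg1* moved from 1.55 to 3.07, with no call. The median over all genes tested was 0.27 in this comparison. The summed level of 8 hormone receptor luminal markers was 13.5 to 5868 CPM over all 7 luminal GFPneg sums and 45.01 to 1873 CPM in luminal GFPpos sums, and its part in these values was not tested.

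The share of cells with at least 1 read was compared after each cell had been thinned to 100000 reads. The shares pool plates, and the groups differ in them, since most intermediate GFPpos cells are in batch 3 and 89 of 100 basal GFPpos cells in batches 1 and 2. *Erbb4* was detected in 79 of 120 luminal GFPpos cells (65.8%, exact 95% interval 56.6 to 74.2), 16 of 39 luminal GFPneg cells (41.03%, 25.57 to 57.9), 19 intermediate GFPpos cells (8.52%, 5.21 to 12.99) and 5 of 100 basal GFPpos cells (5%, 1.64 to 11.3). It was found in 0 of 17 basal GFPneg cells, which allows a share of up to 17.6% if 3 cells are taken as the limit (exact upper bound 19.5%), and in 0 of 12 intermediate GFPneg cells (25% and exact 26.5%). In SMACre luminal cells, *Erbb4* was detected in 2 of 8 GFPpos and 4 of 6 GFPneg cells at 1 week, and in 29 of 51 and 4 of 6 at 4 weeks. At 3 weeks it was 9 of 13 and 2 of 8, at 6 weeks 34 of 37 and 4 of 7, and in K5Cre cells 5 of 11 and 2 of 12. The order of GFPpos and GFPneg was thus not the same at each chase. *Erbb3* was detected in 36% of basal, 71.3% of intermediate and 87.5% of luminal GFPpos cells. Of the SMACre basal GFPpos cells, 17 of 50, 7 of 23 and 3 of 16 had an *Erbb3* read at 1, 3 and 4 weeks, against 9 of 11 K5Cre cells. By Cre line, *Erbb3* was detected in 30.3% of basal, 67.7% of intermediate and 88.1% of luminal SMACre GFPpos cells, and in 81.8%, 74.2% and 81.8% of the K5Cre cells, so the K5Cre cells did not show this order. The intervals cover counting error only, and cells of a plate share their mice.

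*Nrg1* was detected in 74 of 100 basal GFPpos cells (74%, 64.3 to 82.3), 62.3% of intermediate GFPpos cells (55.6 to 68.7) and 31 of 120 luminal GFPpos cells (25.8%, 18.3 to 34.6). Of luminal GFPneg cells 5 of 39 had a read (12.8%, 4.30 to 27.4). Detection of *Hbegf* was lowest in basal GFPpos cells (28%, 19.5 to 37.9) and stood at 82.4% (56.6 to 96.2) in the 17 basal GFPneg cells, all of which are in batch 3. *Egfr* was detected in 79% of basal, 89.2% of intermediate and 73.3% of luminal GFPpos cells, and in 48.7% of luminal GFPneg cells.

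**Figure D3:**
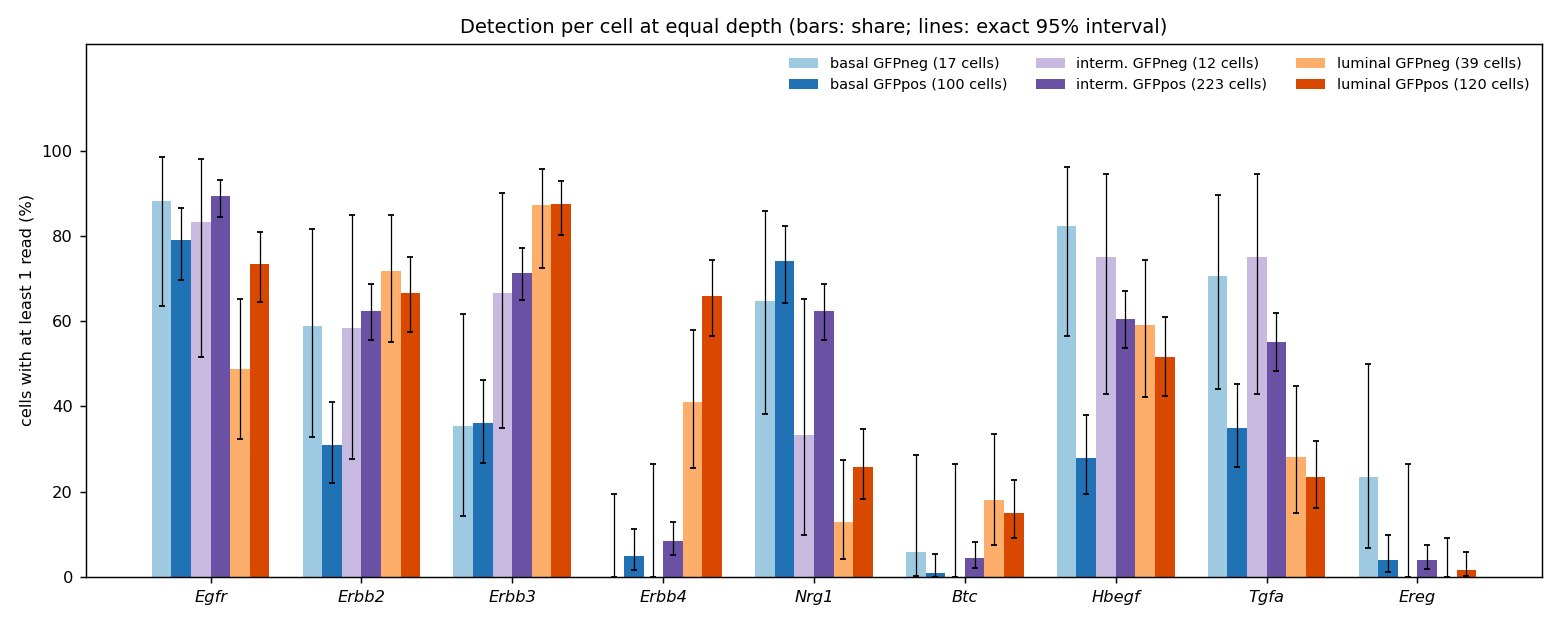
Share of cells with at least 1 read of each gene after thinning to 100000 reads, by gate and GFP, with exact 95% intervals. Erbb4 stands at 65.8% in luminal GFPpos cells and at 5% in basal GFPpos cells, and Nrg1 at 25.8% and 74%.

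Counted per cell, all 4 receptor genes had a read in 47 of 120 luminal GFPpos cells (39.2%), 6 of 39 luminal GFPneg cells (15.4%), 9 intermediate GFPpos cells (4.04%) and 0 of 100 basal GFPpos cells, which allows up to 3%. Of the 47 luminal GFPpos cells, 46 were SMACre cells. The luminal GFPpos share was 42.2% in SMACre cells and 9.09% in K5Cre cells (1 of 11), where Cre line and batch cannot be told apart. In the intermediate gate 46.2% of the GFPpos cells had reads of 3 receptor genes, compared with 17% in the basal gate. Within SMACre cells these shares were 40.4% and 14.6%, and within K5Cre cells, with 11 basal cells, 50.8% and 36.4%. *Erbb2* and *Erbb3*, whose proteins form a neuregulin receptor pair, were found together in 64.2% of luminal, 51.1% of intermediate and 14% of basal GFPpos cells.

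**Figure D4:**
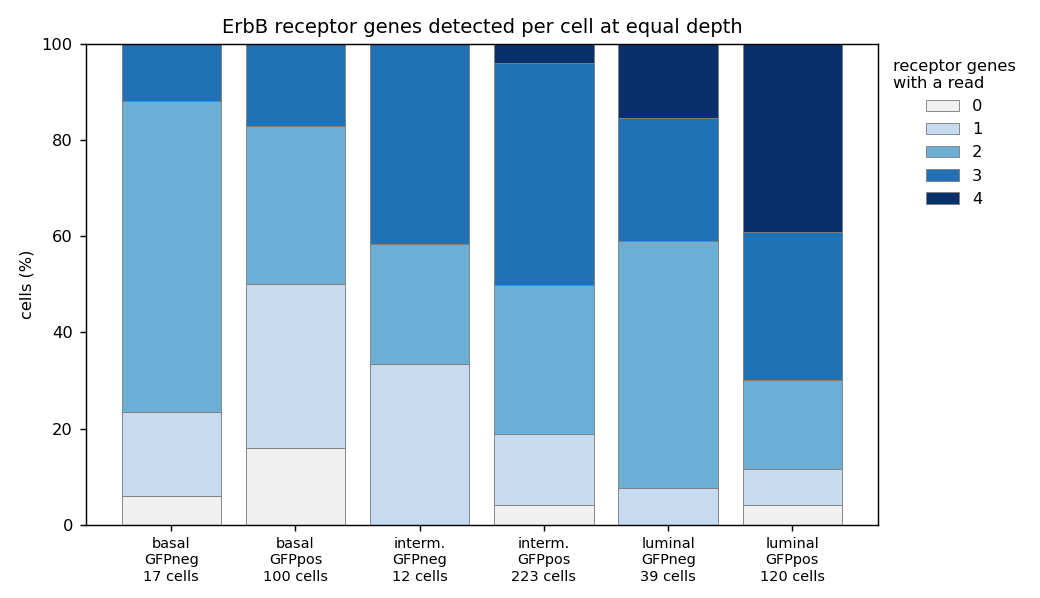
Share of cells in which 0 to 4 of the receptor genes Egfr, Erbb2, Erbb3 and Erbb4 had a read after thinning to 100000 reads, by gate and GFP. Cells with all 4 make up 39.2% of luminal GFPpos cells and 0% of basal GFPpos cells. Both Cre lines are pooled, and the luminal GFPpos share is 42.2% in SMACre and 9.09% in K5Cre cells.

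Within the intermediate gate the ligand and its receptors were counted in the same cells. Of the GFPpos cells with an *Nrg1* read, 88 also had an *Erbb3* read (63.3%), and of the 84 cells without *Nrg1*, 71 had one (84.5%). The shares were 73.3% and 86.7% on plate E, 55% and 91.3% on plate G and 70.8% and 86.5% on plate L, lower among *Nrg1*-positive cells on all 3 plates. *Erbb4* went the other way, with a read in 17 of the cells with *Nrg1* (12.2%) and 2 of the 84 cells without (2.38%). In the luminal gate *Erbb3* was read in 87.1% of GFPpos cells with *Nrg1* and 87.6% of those without. These shares describe cells of the same plates and were not tested.

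Along the chase of SMACre mice, each time point rests on 1 plate except 3 weeks, so chase and plate cannot be told apart, and no test was made. The luminal GFPpos cells of 1 week are those with 33846 CPM of salivary gland markers, and the 46 cells left out for many reads of the salivary gene *Dcpp1* held 0.160 CPM of *Erbb4*. The part of this in the 1-week values was not tested. *Erbb4* in luminal GFPpos cells was at 28.9 CPM at 1 week (2 of 8 cells with a read), 143.98 at 3 weeks (9 of 13), 67.9 at 4 weeks (29 of 51) and 140.9 CPM at 6 weeks (34 of 37). *Nrg1* in the same cells was at 10.005, 15.4, 124.1 and 52.4 CPM, with reads in 2 of 8, 4 of 13, 15 of 51 and 9 of 37 cells. *Hbegf* stood at 39.8, 86.3, 215.3 and 214.6 CPM and *Erbb3* at 216.9, 244.1, 188.8 and 268.4 CPM. In basal GFPpos cells *Nrg1* was at 295.7, 1349 and 840.8 CPM and *Egfr* at 235.6, 222.5 and 64.04 CPM at 1, 3 and 4 weeks.

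Both Cre lines were sequenced in batch 3 in the intermediate GFPpos group at 3 weeks, with 60 SMACre cells on plate E and 63 and 61 K5Cre cells on plates G and L. *Egfr* was at 184.4, 176.2 and 173.03 CPM on plates E, G and L, *Erbb3* at 98.4, 94.8 and 75.5 CPM and *Erbb2* at 65.6, 77.95 and 64.9 CPM, which is a narrow range. *Erbb4* was low and less even, at 7.69, 2.84 and 4.0 CPM. *Nrg1* was at 576.8, 515.6 and 198.1 CPM, and *Hbegf* at 298.97, 501.96 and 168.8 CPM, so that plate L was the lowest for both. The chase of plate L is uncertain, as given above, and its part in these values was not tested.

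In the basal gate GFPneg cells were sorted on plates E, G and L only, and GFPpos cells on 2 of these, so the values of 11 K5Cre cells in each group are given without a test. *Tgfa* was at 140.98 and 142.98 CPM in GFPneg and at 17.6 and 58.5 CPM in GFPpos sums of plates G and L, with reads in 8 of 11 and 5 of 11 cells. *Hbegf* was at 560 and 579 CPM in GFPneg sums and at 888 and 9.66 CPM in GFPpos sums. *Nrg1* was at 269.7 and 125.9 CPM against 49.4 and 592 CPM. Only *Tgfa* of these ligands was lower in GFPpos sums on both plates. One cell gave 96.7% of its GFPpos reads on plate G and 90.3% on plate L.

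Other genes of the pathway were taken from lists of ligands, shedding factors, restraint, relay and ERK response genes. None of the 3 other ligands, 8 shedding factors, 13 receptor restraint genes, 26 signal relay genes and 16 ERK response genes tested was called in any of the 4 comparisons (4, 10, 13, 26 and 16 between intermediate and basal, 4, 8, 13, 26 and 16 between luminal and intermediate, and 2, 8, 13, 26 and 15 between luminal GFPpos and GFPneg). Median differences between luminal and basal GFPpos sums were -1.05 for the ligands, 0.38 for shedding, -0.53 for restraint, -0.04 for relay and -0.52 for ERK response genes, beside -0.04 over all genes. An unadjusted p under 0.05 was found for 1, 1, 3, 2 and 2 of them, and for 1390 of the 12091 genes (11.5%). A lack of calls does not show that these genes were alike in both gates. *Epcam*, on which the gates were set, was at 1851 ± 385 CPM in luminal and 459.4 ± 118.4 CPM in basal GFPpos sums (log2 1.90, SE 0.28, edgeR adjusted p = 0.0346).

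Some of these were picked after their values were seen. *Areg*, amphiregulin, the EGFR ligand of duct growth, was at 210.1 ± 250.7 CPM in luminal and 6.41 ± 6.58 CPM in basal GFPpos sums and higher in the luminal sum on 5 of 5 plates (log2 4.90, SE 1.32, edgeR adjusted p = 0.170). On each of these plates 1 cell gave 63.1% to 100% of the luminal reads, and the luminal GFPpos sum of plate 5 held 0.196 CPM. The 3 other ligands tested, *Areg* included, had a median difference of -1.05. Of all genes tested, 14.7% moved the same way on every plate and 4.68% did not overlap. *Pik3cb*, a PI3 kinase catalytic subunit, was at 116.9 ± 38.7 and 31.4 ± 15.8 CPM without overlap (1.85, SE 0.33, adjusted p = 0.0587). *Gab2*, a docking protein for PI3 kinase, differed by 6.09 (SE 1.68, adjusted p = 0.180). Of the ERK response genes, *Ccnd1* (cyclin D1) had 456.9 ± 294.8 and 54.9 ± 63.4 CPM (4.29, SE 1.17, adjusted p = 0.179), and *Myc* 252.5 ± 124.5 and 651.1 ± 368.1 CPM (-1.37, SE 0.33, adjusted p = 0.135).

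The genes most like each member were found by Pearson correlation of log2(CPM + 1) over the 30 sums, among 19796 genes. The sums share plates, batches and read lengths, so the values are descriptions. *Erbb4* went with *Kit* (r = 0.91), a marker of luminal progenitors, *Cytip* (0.90) and *Ptpn18* (0.88), and *Erbb3* with *Notch3* (0.80), a Notch receptor, *Myh14* (0.80) and *Zbtb42* (0.80). *Erbb2* went with *Arf3* (0.82), *Ckap5* (0.82) and *Itsn2* (0.81), and *Egfr* with *Rasal2* (0.78), *Ctsf* (0.76) and *Palld* (0.72). Among the ligands, *Nrg1* went with *Antxr1*, *Rnase4* and *3110039I08Rik* (0.84, 0.84 and 0.83), *Tgfa* with *Tbc1d9*, *Bag2* and *Fzd1* (0.82, 0.81 and 0.80), *Hbegf* with *Crim1*, *Cycs* and *Tdg* (0.76, 0.71 and 0.70) and *Btc* with *Gab2*, *4933423P22Rik* and *Tyro3* (0.77, 0.74 and 0.73). *Ereg* went with *Slc6a17*, *Ecel1* and *Synpo2l* (0.85, 0.84 and 0.83), values that rest on few sums with a read. Among the 9 genes themselves the highest value was 0.68 for *Erbb3* with *Erbb4*, followed by 0.61 for *Egfr* with *Nrg1*, and the lowest were -0.48 for *Nrg1* with both *Erbb3* and *Erbb4*.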

How the data were processed

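Mammary cells were index-sorted singly and prepared by Smart-seq2, with single-end reads in batches 1 and 2 and paired-end reads in batch 3. The authors deposited raw read counts per gene (unit: counts, no normalization, no molecular identifiers), made, per the labels and the methods, with Trim Galore 0.6.5, STAR 2.7.7a on GRCm38 and HTSeq 0.13.5. Strand was not marked, so antisense reads count to a gene. Entries that name no gene (58.6% of all entries summed) and spike-ins (1.19%) stayed out of library sizes.

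A repeat run of 96 cells was left out, and 511 of 744 cells were kept (at most 1 *Dcpp1* and at least 2 *Epcam* reads, more than 1400 genes and 100000 reads, and a mitochondrial share under 10%). For *Epcam* and *Dcpp1*, limits stated for gene counts were here set on reads. No doublet caller was run on the singly sorted cells. Kept cells held 103081 to 3363298 reads. Gate and GFP came from the labels, and plate and chase from the deposited annotation. Symbols and exon lengths came from GENCODE vM21, which named 37893 of 39154 identifiers.

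Counts were summed per plate and group with at least 3 kept cells. Groups were compared with the quasi-likelihood test of edgeR 4.0.16 (filterByExpr, TMM normalization, plate as block) in R 4.3.3, with Benjamini-Hochberg adjustment over all genes tested and a threshold of 0.05. The plate pairs groups because they come from the same mice. P-values measure how the difference between groups within a plate varied over plates, which also differ in Cre line, chase and batch. DESeq2 1.42.0 and the alternatives given in the closing section were also run. The code was tested on simulated counts. Detection used cells thinned to 100000 reads and Clopper-Pearson intervals, and the limit for 0 cells is 3 cells. The plan was to name all 9 genes in every comparison, with the 3 genes most like each and pathway genes past the threshold. Values are not given for every gene in each comparison. The pathway genes named did not pass the threshold and were picked after their values were seen. The genes and lists were chosen with earlier results of these data known.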

Additional observations from a re-analysis of the deposited data

Results flagged for a closer look

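In 10 of 35 groups with 4 to 10 plate sums, 1 plate lay far from the others by Dixon's test at the 95% level. That level is meant for normally distributed values, and a lone sum with reads among sums at 0 is always flagged. The number flagged is therefore a description only. High plates were 888 CPM of *Hbegf* in basal GFPpos cells of plate G (median of the others 22.95), 548 CPM of *Hbegf* in luminal GFPneg cells of plate L (101.2), 375.5 CPM of *Nrg1* in luminal GFPneg cells of plate 3 (0.347), with all reads from 1 of 3 cells, and 86.3 CPM of *Tgfa* in luminal GFPpos cells of plate L (19.3). *Egfr* in basal GFPpos cells was low on plate 4, at 64.04 CPM against a median of 228.8 on the others. Low-level genes gave the rest. These were *Btc* with 93.5 CPM in intermediate and 2.32 CPM in basal GFPpos cells of plate 1, *Erbb4* with 5.68 CPM in basal GFPpos cells of plate 1, and *Ereg* with 26.4 CPM in intermediate GFPpos cells of plate E and 3.17 CPM in luminal GFPpos cells of plate L.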

How the results depend on the processing

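Between luminal and basal GFPpos sums 0.562% of the genes tested were called, and this became 11.4% with DESeq2 (1378 genes), 3.08% without a filter on low counts (906), 3.01% after thinning, 2.01% with up to 100 *Dcpp1* reads allowed, 1.13% with Cre line and chase as unit, 1.07% with no replicate block (no block for the plate), 0.732% in 1 fit over all groups and 0.0407% to 0.361% (5 to 44 genes) with a plate left out, the lowest without plate 3. The 0 calls between luminal and intermediate became 6.65%, 1.01%, 0.816%, 0.375%, 0.217% and 0.152% with DESeq2, no filter, thinning, the *Dcpp1* limit, no replicate block and 1 fit, 0.0628% with at least 5 cells per sum and 0% to 0.0628% with a plate left out. Between intermediate and basal they became 0.5264% (DESeq2) and 0.0752% (no filter), and between luminal GFPpos and GFPneg 2.13%, 0.281%, 0.00875% (*Dcpp1* limit) and 0.0303% (1 fit). The causes were not tested.

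*Nrg1* stayed lower in the luminal gate in all 14 alternatives (log2 -6.84 to -4.62, adjusted p 6.87e-27 to 0.325) and was called in 7. It was not called with any plate left out, with no replicate block (0.146) or in 1 fit over all groups (0.325). *Erbb3* was called in 8 of 14 (2.02 to 2.75, adjusted p 8.68e-05 to 0.295) and *Erbb4* in 4 of 14 (5.45 to 9.74, adjusted p 7.12e-11 to 0.271). Where the filter on low counts was used, *Erbb4* passed it through its luminal sums, so those calls are a description only. No replicate block turned the direction of *Hbegf* against basal in the luminal (-0.46) and intermediate gate (-0.28), of *Hbegf* (-0.18) and *Btc* (-1.48) between luminal and intermediate, and of *Nrg1* (-1.44), *Btc* (-0.41) and *Hbegf* (-0.014) between GFPpos and GFPneg. Cre line and chase as unit turned *Erbb2* in the intermediate gate against basal (-0.18) and *Hbegf* in luminal against intermediate (-0.28) and against GFPneg cells (-0.24), thinning turned *Erbb2* between GFPpos and GFPneg (-0.15), at least 5 cells turned *Hbegf* in intermediate against basal (-0.18), and 1 fit turned *Nrg1* there (0.68) and between GFPpos and GFPneg (-0.21). With a plate left out, the values between intermediate and basal ran from -0.15 to 0.64 for *Erbb2*, -0.0067 to 0.89 for *Erbb3*, -0.37 to 1.45 for *Hbegf* and -0.28 to 1.31 for *Tgfa*, between luminal and intermediate from -0.61 to 0.89 for *Hbegf*, and between GFPpos and GFPneg from -0.15 to 0.36 for *Erbb2* and -0.35 to 3.10 for *Nrg1*. None of these was called. With all reads instead of thinned cells, 11 detection values left their interval, all upwards.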

Other observations

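The 96 cells of the 6-week plate were sequenced a second time, and 37 of them passed quality control in both runs. The levels of the first and the repeat run were 292.2 and 271.2 CPM for *Erbb3*, 137.8 and 134.1 for *Erbb4*, 123.8 and 122.03 for *Egfr*, 238.1 and 244.2 for *Hbegf* and 44.5 and 43.6 CPM for *Nrg1*. Detection repeated less well for *Nrg1*, with 6 cells read in both runs and 11 in 1 run only, than for *Erbb4*, with 33 and 1 cells.

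The 46 cells left out for over 100 *Dcpp1* reads, a salivary gland gene, held 249.6 CPM of *Egfr*, 177.4 of *Erbb3*, 47.01 of *Erbb2* and 32.7 CPM of *Nrg1*. *Erbb4* was at 0.160 CPM in these cells, with a read in 2 of 46, against 9.41 to 164.2 CPM in the luminal GFPpos sums.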
